A study of Homo sapiens with 12 samples.

Results

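The clustered protocadherins examined here are 53 of the 19923 genes in the count tables. They were chosen by symbol and place, as every gene on chromosome 5 whose symbol begins with PCDHA, PCDHAC, PCDHB, PCDHGA, PCDHGB or PCDHGC followed by a number. By the positions in the tables (GRCh38, plus strand), 15 members form the alpha cluster (140786136 to 141012347), 16 the beta cluster (141051135 to 141249365) and 22 the gamma cluster (141330571 to 141512981). RNA was measured in 2 established human lines of neuroblastoma with amplified MYCN, SK-N-BE2 and NGP, both labelled as wild type in genotype. The cells were kept for 6 days with STM2457, a small-molecule inhibitor of the m6A RNA methyltransferase METTL3, or with its solvent DMSO. The dose was 12 µM in SK-N-BE2 and 1 µM in NGP, and each of the 4 groups had 3 replicates. The questions were which isoforms each line transcribed and which members differed between STM2457 and DMSO within each line.

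Clustered protocadherins are cadherin-like proteins of the neuronal surface that bind the same isoform on a neighbouring membrane, and the combination of isoforms gives a neuron an identity by which its own branches avoid each other. In the alpha and gamma clusters each variable first exon has its own promoter and encodes the extracellular, transmembrane and adjoining cytoplasmic parts. It is spliced to constant exons that encode a shared cytoplasmic tail. The beta genes have a single coding exon each and no constant tail. A promoter is chosen when CTCF and cohesin join it by a chromatin loop to a distal enhancer, and promoters that are not chosen carry DNA methylation. The C-type members (PCDHAC1, PCDHAC2, PCDHGC3, PCDHGC4 and PCDHGC5) lie at the downstream ends of the alpha and gamma clusters and are known to be less subject to random choice. In neuroblastoma, methylation of PCDHB promoters is a known mark of the CpG island methylator phenotype.

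Most member promoters are known to share a short conserved element with the core CGCT, where CTCF binds. A match to CGCT alone does not show that a promoter holds this element. Of the 53 members, 47 matched a promoter window in RefSeq (GRCh38.p14), here the 250 bases before the annotated start. CGCT occurred on either strand in 45 of these 47 windows (95.7%), against 64.8% of all 35116 RefSeq promoter windows of that length. On the gene's own strand within the last 100 bases it occurred in 44 of 47 (93.6%), against 28.1% of all windows. The longer motif GGCGCT, which contains CGCT, was found on either strand in 0 of 13 alpha, 12 of 14 beta and 8 of 20 gamma windows, against 17.9% of all windows. The 4 C-type windows held 13 to 18 CpG (median 14), the other 29 alpha and gamma windows a median of 5, and all windows a median of 11. The sequences that follow are 100 bases of gene-strand promoter that end at the RefSeq start or, where the tables' first exon begins earlier, at that exon. They show the member with the highest level in each line and the 2 with the lowest levels over both lines, with DMSO, in the alpha and the beta cluster. Members whose first exon in the tables begins over 50 bases upstream of the RefSeq start were passed over. This left 39 of the 47 windows over all clusters, and the choice was made among the alpha and beta windows of these. Capitals mark CGCT. PCDHAC2 (chr5:140966370-140966469) was the highest alpha member in SK-N-BE2 and PCDHA2 (chr5:140794752-140794851) the highest of these in NGP, while PCDHA6 (chr5:140827858-140827957) and PCDHA7 (chr5:140834148-140834247) were low in both.
PCDHAC2: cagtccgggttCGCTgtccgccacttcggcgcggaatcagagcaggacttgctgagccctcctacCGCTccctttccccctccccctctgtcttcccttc
PCDHA2: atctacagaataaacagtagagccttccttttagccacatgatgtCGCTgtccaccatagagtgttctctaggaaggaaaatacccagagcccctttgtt
PCDHA6: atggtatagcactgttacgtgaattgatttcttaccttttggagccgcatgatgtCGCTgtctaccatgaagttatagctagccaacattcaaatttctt
PCDHA7: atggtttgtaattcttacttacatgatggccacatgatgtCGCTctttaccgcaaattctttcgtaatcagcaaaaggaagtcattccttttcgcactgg
In the beta cluster PCDHB4 (chr5:141121718-141121817) was highest in SK-N-BE2 and PCDHB2 (chr5:141094506-141094605) in NGP, while PCDHB5 (chr5:141135106-141135205) and PCDHB12 (chr5:141208597-141208696) were low in both.
PCDHB4: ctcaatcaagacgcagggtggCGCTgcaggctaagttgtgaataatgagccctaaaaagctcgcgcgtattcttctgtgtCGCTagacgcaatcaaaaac
PCDHB2: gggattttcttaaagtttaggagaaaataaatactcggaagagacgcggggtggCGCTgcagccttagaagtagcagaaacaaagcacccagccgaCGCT
PCDHB5: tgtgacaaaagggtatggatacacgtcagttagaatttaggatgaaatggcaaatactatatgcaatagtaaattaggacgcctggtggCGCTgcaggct
PCDHB12: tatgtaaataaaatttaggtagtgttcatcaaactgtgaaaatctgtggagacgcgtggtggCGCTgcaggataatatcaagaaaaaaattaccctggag
The sequence CGCT was present in the stretches of members with high and with low levels alike. Its last copy began 35 bases before the end of the PCDHAC2 stretch, 55 in PCDHA2, 45 in PCDHA6 and 60 in PCDHA7. In PCDHB4 and PCDHB2 it began 20 and 4 bases before the end, and both hold 2 copies, while PCDHB5 and PCDHB12 hold 1, at 11 and 38 bases. All 4 beta windows held GGCGCT on the gene's strand.

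Reads that fall in exons shared by several genes are ambiguous and were not counted, so alpha and gamma counts come from the exons of 1 member alone. The unshared part was a median of 53.4% of a member's exon length in the alpha cluster, 100% in beta and 56.1% in gamma. A read from an unspliced transcript that runs into the first exon of a downstream member is counted to that member. Levels are given as CPM, reads scaled to a library of common size, and, between genes, as CPM per kb of unshared exon. The libraries held 47242379 to 58159937 counted reads each, of which 5306 to 14129 fell on the members. Of the 10 sympathoadrenal markers, 9 reached 1 CPM in each group. TH, the first enzyme of catecholamine synthesis, stood at 0.514 CPM in NGP with DMSO. A summed list of 11 markers of blood, endothelium, epithelium and fibroblasts ran from 71.7 to 89.3 CPM with DMSO and 110.8 to 119.2 CPM with STM2457 in SK-N-BE2, and from 64.9 to 78.8 and 278.6 to 312.0 CPM in NGP. Epithelial KRT5 had no reads in any group and the leukocyte gene PTPRC none in NGP. With STM2457, 4 were higher and 2 lower of the 9 tested in SK-N-BE2, and 3 were higher and 0 lower of the 5 tested in NGP. The fibroblast genes COL1A1, PDGFRB and LUM rose by 1.09, 0.32 and 0.75 on the log2 scale in SK-N-BE2 and by 2.04, 2.23 and 1.89 in NGP. In SK-N-BE2 PTPRC also rose (1.79), and the endothelial genes PECAM1 and VWF were lower (-1.17 and -1.87). The part of this list in the results was not tested. In bulk RNA, fewer cells of a type and less RNA per cell cannot be told apart.

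Each library was compared with the mean of the other 2 of its group, gene by gene, as a median log2 difference, and the NGP DMSO libraries lay farthest apart. In NGP DMSO replicate 1, genes with under 2 kb of exon lay at 0.48 and genes over 10 kb at -0.37, and the members at -0.38 in alpha, -0.29 in beta and -0.43 in gamma. Replicate 2 lay on the opposite side, at -0.325 and 0.274 by exon length and at 0.416, 0.133 and 0.363 in the 3 clusters. Replicate 3 lay on the same side as replicate 2, with members at 0.16, 0.145 and 0.109. In the 9 libraries of the other groups the medians of genes under 2 kb ran from -0.256 to 0.148. The labels do not say whether replicates were separate cultures, so the p-values measure the spread between these libraries, which may be technical. By the tables' headers the lines came from different sequencing runs, so in any comparison between them the line, its dose and its run cannot be told apart.

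With DMSO the lines carried the isoforms of every cluster in different proportions. Summed over members, the alpha cluster stood at 39.5 ± 4.16 CPM in SK-N-BE2 and 40.6 ± 11.7 CPM in NGP (SD, n = 3 throughout). The beta cluster stood at 45.4 ± 1.63 and 116.7 ± 15.2 CPM, 2.57-fold higher in NGP, with no overlap between the libraries. The gamma cluster stood at 34.6 ± 7.004 and 50.04 ± 15.96 CPM, with NGP replicate 1 (31.7) inside the SK-N-BE2 range of 28.1 to 42.0. As shares of all member reads, alpha, beta and gamma made up 33.1%, 38.2% and 28.8% in SK-N-BE2, against 19.3%, 57.0% and 23.7% in NGP. A mean of at least 0.5 CPM was reached by 28 of 53 members in SK-N-BE2 and 38 of 53 in NGP.

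Between the lines, 47 members passed the filter on low counts (filterByExpr in edgeR) and 37 were called (adjusted p under 0.05 in edgeR), where 64.8% of all 14336 genes tested were called. SK-N-BE2 was higher for 9 of them and lower for 28, where 33.0% of all genes were called higher and 31.8% lower. Of the 28, PCDHA4, PCDHA5, PCDHA6, PCDHA13 and PCDHB3 passed the filter only through their NGP libraries. So did PCDHGA3, PCDHGA4, PCDHGA5, PCDHGA7, PCDHGB1, PCDHGB3 and PCDHGB6. Members this low in SK-N-BE2 could enter the test only by being higher in NGP. In reverse, PCDHGB7 and PCDHGC4 passed it only through their SK-N-BE2 libraries. By cluster, 4 alpha members were higher and 9 lower, 1 beta member higher and 10 lower, and 4 gamma members higher and 9 lower. The median log2 difference, SK-N-BE2 minus NGP, was -1.20 over the tested members and 0.01 over all genes. The filter left out the other 6 members, and with no filter all 53 were tested and 38 called, 36 of them shared with the 37. Over all genes the share called with no filter was 56.0%.

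**Figure D1:**
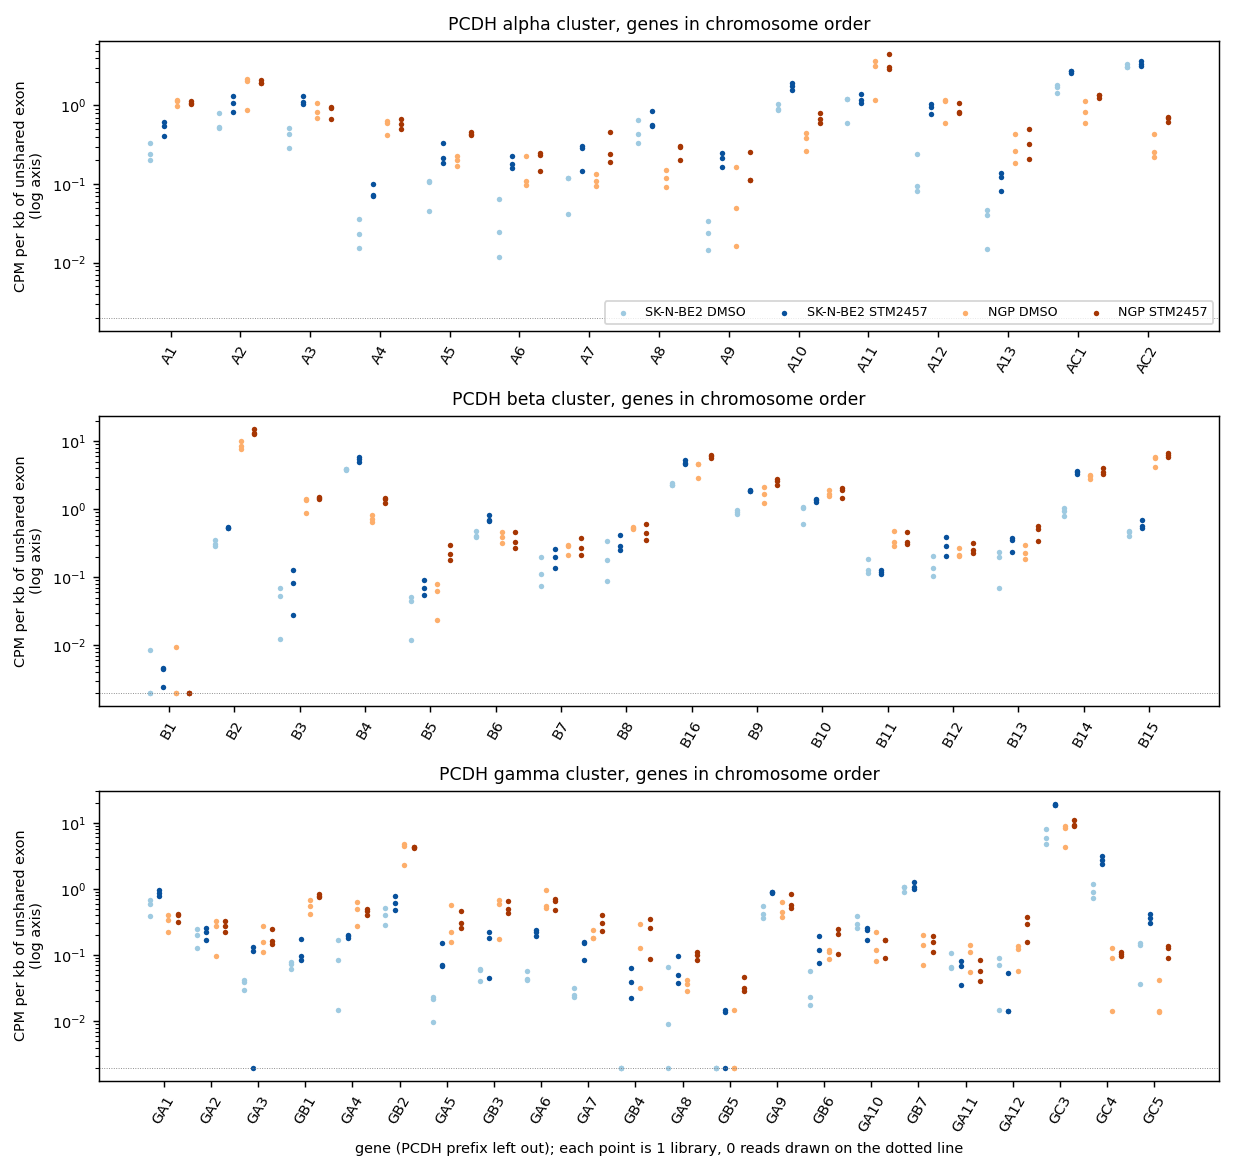
Level of each of the 53 members in each of the 12 libraries, in CPM per kb of unshared exon on a log axis, in chromosome order for the alpha, beta and gamma clusters; colours give the 4 groups and points on the dotted line are libraries with 0 reads. PCDHB2 and PCDHB15 lie high in NGP, PCDHAC2 and PCDHB4 high in SK-N-BE2, and PCDHGC3 leads the gamma cluster in both lines.

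Per kb of unshared exon, the alpha cluster was led by C-type members in SK-N-BE2 and by upstream members in NGP. By reads, without regard to length, PCDHA10 led it in SK-N-BE2 with 30.28%, 30.58% and 30.25% of the alpha reads, against 25.03%, 28.22% and 26.94% for PCDHAC2. PCDHAC2, which lies last before the constant exons, held 33.1, 37.9 and 36.1% of the alpha level per kb in the 3 SK-N-BE2 libraries and 3.33, 3.59 and 2.11% in NGP. In CPM it stood at 11.1, 10.2 and 10.3 in SK-N-BE2 against 0.736, 1.44 and 0.8397 in NGP, a log2 difference of 3.39 (SE 0.27 and adjusted p 1.41e-06 by edgeR). All SK-N-BE2 libraries lay above all NGP libraries. PCDHAC1, the other alpha C-type member, stood at 7.48, 7.02 and 5.83 against 2.45, 4.597 and 3.42 CPM, a log2 difference of 0.97 (SE 0.25 and adjusted p 0.00626 by edgeR), again with no overlap. Together both made up 54.2% ± 4.14 of the alpha level in SK-N-BE2 against 11.4% ± 2.06 in NGP.

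In NGP the alpha cluster was led by PCDHA11, with 17.4, 25.9 and 30.2% of the level per kb against 11.8, 7.32 and 14.1% in SK-N-BE2. Its CPM of 3.92, 10.6 and 12.3 in NGP overlapped the 4.02, 2.01 and 4.1 of SK-N-BE2 through NGP replicate 1. The log2 difference was -1.39 (SE 0.41 and adjusted p 0.0117 by edgeR), and without SK-N-BE2 replicate 2 it was -1.12 and not called (adjusted p 0.0606). PCDHA2 followed with a mean share of 16.1% in NGP and 6.77% in SK-N-BE2. It stood at 2.33, 5.39 and 5.78 CPM in NGP and 2.11, 1.36 and 1.38 CPM in SK-N-BE2, with a log2 difference of -1.47 (SE 0.36 and adjusted p 0.00452 by edgeR) and NGP replicate 1 nearest to the other line. PCDHA1, at the upstream end of the cluster, stood at 3.102, 2.66 and 3.203 CPM in NGP and 0.896, 0.6496 and 0.556 CPM in SK-N-BE2, a log2 difference of -2.07 (SE 0.29 and adjusted p 9.72e-05 by edgeR).

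The widest alpha gap between the lines was in PCDHA4. It stood at 4.49, 6.29 and 6.76 CPM in NGP and 0.246, 0.162 and 0.383 CPM in SK-N-BE2, a log2 difference of -4.44 (SE 0.34 and adjusted p 1.22e-06 by edgeR), and its exons in the tables include 10574 unshared bases against a cluster median of 3293. PCDHA12 was lower in SK-N-BE2 (log2 difference -2.80), which became -3.44 without SK-N-BE2 replicate 2, the highest of its group. PCDHA6 was also lower (log2 difference -2.04), but it lost its call without SK-N-BE2 replicate 2 or 3 or NGP replicate 3 (adjusted p 0.0674 to 0.0919) and stood at -2.93 without SK-N-BE2 replicate 1. PCDHA5 (-1.20) lost its call without SK-N-BE2 replicate 1 or NGP replicate 2 or 3 (adjusted p 0.0595 to 0.105). PCDHA8 and PCDHA10 were the only called alpha members outside the C type that were higher in SK-N-BE2, with log2 differences of 1.98 and 1.39. PCDHA7 and PCDHA9 were not called (-0.24 and -1.66).

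The beta cluster changed its leading member from line to line. PCDHB4 held 33.4, 37.3 and 34.96% of the beta level per kb in SK-N-BE2 against 2.93, 2.77 and 2.11% in NGP, while PCDHB2 held 2.503, 2.92 and 3.16% against 31.7, 28.2 and 32.9%. In CPM, PCDHB4 stood at 14.4, 14.9 and 14.95 in SK-N-BE2 against 2.72, 3.18 and 2.5 in NGP, a log2 difference of 2.41 (SE 0.17 and adjusted p 6.96e-07 by edgeR). It was the 1 beta member called higher in SK-N-BE2. PCDHB2 stood at 1.16, 1.26 and 1.46 in SK-N-BE2 against 31.7, 34.8 and 41.9 in NGP, a log2 difference of -4.79 (SE 0.19 and adjusted p 1.31e-08 by edgeR). PCDHB3, the next gene downstream of PCDHB2, stood at 0.176, 0.0406 and 0.2299 against 3.003, 4.68 and 4.67 CPM, a log2 difference of -4.74 (SE 0.45 and adjusted p 5.91e-06 by edgeR). For these 3 genes no library of one line reached the range of the other.

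PCDHB15, at the downstream end of the cluster, stood at 1.704, 1.64 and 1.46 CPM in SK-N-BE2 and 14.9, 21.3 and 20.2 CPM in NGP, a log2 difference of -3.54 (SE 0.21 and adjusted p 1.48e-07 by edgeR). PCDHB16 was among the 3 highest beta members per kb in both lines, at 2.27, 2.27 and 2.41 CPM per kb in SK-N-BE2 against 2.88, 4.65 and 4.69 in NGP, and differed less (-0.80, SE 0.20 and adjusted p 0.00469 by edgeR). PCDHB14 stood at 4.83, 3.76 and 4.37 CPM in SK-N-BE2 and 14.2, 12.9 and 14.7 CPM in NGP (log2 difference -1.68, adjusted p 9.81e-06 by edgeR). The other called beta members, PCDHB7, PCDHB8, PCDHB9, PCDHB10 and PCDHB11, were lower in SK-N-BE2, with log2 differences from -0.84 to -1.36. PCDHB7 lost its call without any library but SK-N-BE2 replicate 2 (edgeR adjusted p 0.0543 to 0.164). It also lost it with no filter on low counts (0.0504) and with a replicate block (0.08). PCDHB8 lost its call without SK-N-BE2 replicate 2 or 3 or NGP replicate 3 (0.0525 to 0.0751). It stood at -1.94 in place of -1.33 without SK-N-BE2 replicate 1. PCDHB6, PCDHB12 and PCDHB13 were not called, and PCDHB1, whose protein diverges from the other beta isoforms, had 0 to 0.0781 CPM in all 12 libraries. Beta genes are similar in sequence, and reads that map equally well to several of them were not counted, which lowers the counts of members with close copies to an extent not measured here.

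The gamma cluster was led by PCDHGC3 in both lines. This C-type member, which is expressed in many tissues, held 60.96, 55.5 and 56.8% of the gamma level per kb in SK-N-BE2, against 43.4, 43.8 and 48.1% in NGP. In CPM it stood at 26.1, 15.6 and 19.4 against 14.0, 26.97 and 29.3. The ranges overlapped through NGP replicate 1, and the log2 difference was -0.19 (SE 0.28 and adjusted p 0.558 by edgeR). Without NGP replicate 1 PCDHGC3 was called, lower in SK-N-BE2. PCDHGC4, a C-type isoform linked to survival of interneurons, stood at 3.32, 2.03 and 2.53 CPM in SK-N-BE2 and 0.0398, 0.257 and 0.352 CPM in NGP, a log2 difference of 3.60 (SE 0.52 and adjusted p 0.000133 by edgeR) with no overlap. PCDHGC5 was left out of this comparison by the filter on low counts, at 0.422, 0.102 and 0.402 against 0.119, 0.0395 and 0.0391 CPM.

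Behind PCDHGC3 the lines differed in the leading variable exons. PCDHGB2 held 23.1, 23.8 and 25.8% of the gamma level per kb in NGP and 3.87, 3.26 and 3.81% in SK-N-BE2. In CPM it stood at 5.93, 11.6 and 12.5 in NGP, against 1.32, 0.731 and 1.04 in SK-N-BE2, a log2 difference of -3.27 (SE 0.34 and adjusted p 1.13e-05 by edgeR). PCDHGB7 was the reverse, at 2.97, 2.54 and 2.95 CPM in SK-N-BE2 and 0.199, 0.552 and 0.391 CPM in NGP, a log2 difference of 2.89 (SE 0.37 and adjusted p 5.27e-05 by edgeR). The 7 PCDHGB members together made up 14.8% ± 1.59 of the gamma level in SK-N-BE2 against 33.1% ± 1.95 in NGP, and the 12 PCDHGA members 17.9% ± 2.11 and 21.2% ± 4.43.

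Among PCDHGA members, PCDHGA6 stood at 0.246, 0.244 and 0.326 CPM in SK-N-BE2 and 3.12, 5.43 and 2.93 CPM in NGP, a log2 difference of -3.80 (SE 0.36 and adjusted p 6.47e-06 by edgeR). PCDHGA5 stood at 0.0351, 0.0812 and 0.0766 against 0.796, 2.01 and 0.566 CPM, a log2 difference of -4.09 (SE 0.66 and adjusted p 0.000317 by edgeR), or -3.36 without NGP replicate 2, its highest library. Both genes were below every NGP library in all 3 SK-N-BE2 libraries. PCDHGB6 was lower in SK-N-BE2 (-1.66), a call lost without SK-N-BE2 replicate 1 or 2 or NGP replicate 3 (adjusted p 0.0598 to 0.0758) and at -2.33 without SK-N-BE2 replicate 3. PCDHGB4 had 0 reads in the 3 SK-N-BE2 DMSO libraries and 57 in those of NGP (4, 37 and 16 by replicate). Pooled over the group, it was at least 19.8-fold higher when 3 reads over the group (0.0189 CPM) are taken as the limit. This bound rests largely on NGP replicate 2 and does not hold for each library, replicate 1 being at 0.0796 CPM. The remaining called members were PCDHGA3, PCDHGA4, PCDHGA7, PCDHGB1 and PCDHGB3, lower in SK-N-BE2, and PCDHGA1 and PCDHGA10, higher. PCDHGA4 had a log2 difference of -2.34, or -3.18 without SK-N-BE2 replicate 1. PCDHGA1 lost its call without SK-N-BE2 replicate 2 or 3 or NGP replicate 1 or 3 (adjusted p 0.0869 to 0.171), and PCDHGA10 without SK-N-BE2 replicate 1 or 3 or NGP replicate 1 or 3 (0.0542 to 0.104).

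**Figure D2:**
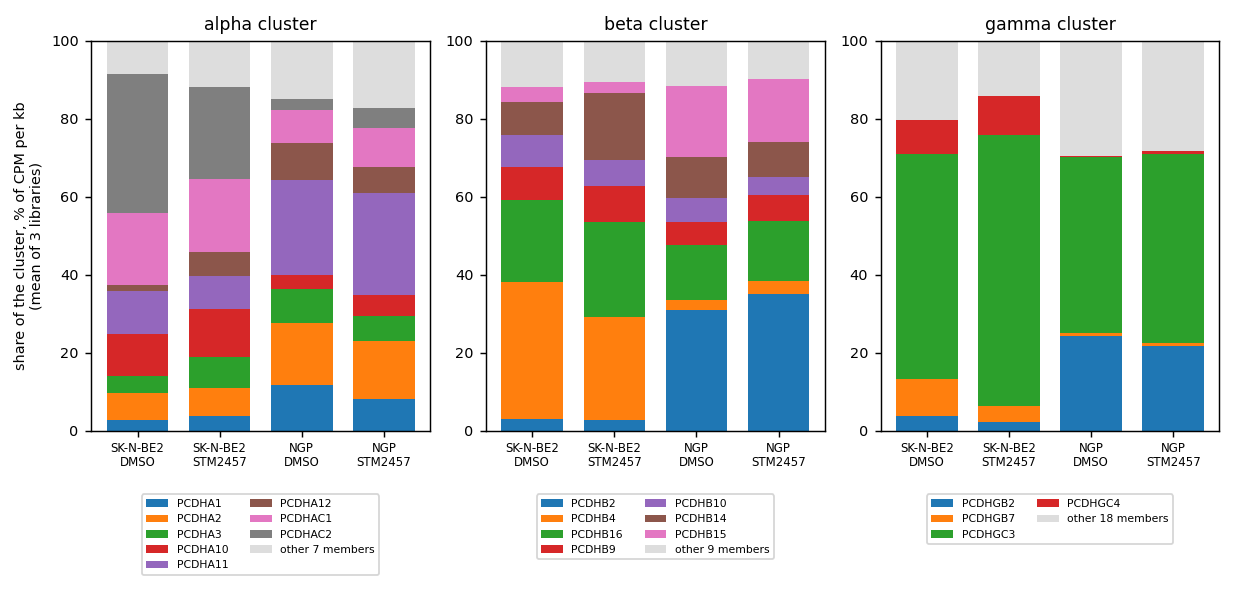
Mean share of each cluster's summed level (CPM per kb of unshared exon, in %) held by its leading members in the 4 groups of 3 libraries, with the remaining members in light grey. PCDHAC2 fills 35.7% of alpha in SK-N-BE2 with DMSO, PCDHB4 and PCDHB2 exchange places between the lines, and PCDHGC3 fills 57.7% of gamma in SK-N-BE2 with DMSO and 69.5% with STM2457.

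Isoform profiles were compared library by library as the sum, over the members of a cluster, of the smaller of the 2 shares, so that 100% means the same profile. SK-N-BE2 and NGP with DMSO overlapped by a median of 45.1% in alpha, 50.7% in beta and 61.8% in gamma over 9 pairs of libraries. Replicates of a group overlapped by medians of 85.2% to 96.7%. The number of equally used isoforms that would give the same evenness (the inverse of the summed squared shares) for alpha was 5.09 ± 0.41 in SK-N-BE2 against 7.57 ± 1.28 in NGP, 5.14 ± 0.37 and 5.83 ± 0.34 for beta, and 2.80 ± 0.22 and 3.72 ± 0.37 for gamma. The gamma values of the lines did not overlap, while the beta values did (5.52 and 5.48 at the nearest libraries). The alpha libraries of SK-N-BE2 (4.69 to 5.52) lay below those of NGP (6.35 to 8.91).

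With STM2457, SK-N-BE2 carried more clustered protocadherin RNA in all 3 clusters. The alpha sum went from 39.5 ± 4.16 to 66.7 ± 3.04 CPM (1.69-fold), beta from 45.4 ± 1.63 to 86.8 ± 5.51 CPM (1.91-fold) and gamma from 34.6 ± 7.004 to 87.3 ± 2.45 CPM (2.52-fold). All 53 together went from 119.5 ± 12.4 to 240.7 ± 7.61 CPM, 2.01-fold. In each cluster the 3 STM2457 libraries lay above the 3 DMSO libraries. Members at a mean of at least 0.5 CPM numbered 38 of 53, against 28 with DMSO.

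Of the 46 members tested in SK-N-BE2, 29 were called (edgeR adjusted p under 0.05), where 54.7% of all 14013 genes were called. All 29 were higher, where 26.9% of all genes were called higher, and 0 were lower, where 27.8% were. Several of the 29, named below, passed the filter on low counts only through their STM2457 libraries. They could enter the test only by rising. At an unadjusted p under 0.05 edgeR gave 30 higher and 0 lower, and DESeq2, a second count model, gave 29 higher and 0 lower after adjustment, 28 of them shared with edgeR. By cluster, 12 of 15 alpha, 8 of 14 tested beta and 9 of 17 tested gamma members rose. The median log2 fold change over the tested members was 0.92, against -0.02 over all genes. Over all 53 members, the 3 STM2457 libraries lay above the 3 DMSO libraries in 34 and below in 1. The latter was PCDHGA10, which was not called (-0.55, adjusted p 0.125 by edgeR). The share of all genes separated in this way was not computed. The 7 members left out by the filter on low counts were PCDHB1, PCDHB5, PCDHGA3, PCDHGA12, PCDHGB3, PCDHGB4 and PCDHGB5. With no filter all 53 were tested and 30 called, 28 of them shared. Requiring a mean of 1 CPM left 25 members tested and 16 called. Over all genes the share called was 45.6% with no filter and 57.9% at a mean of 1 CPM.

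**Figure D3:**
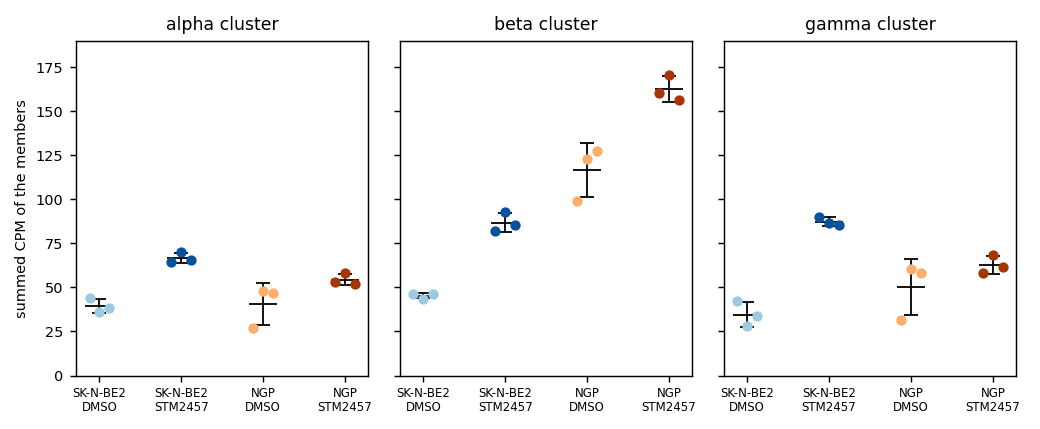
Summed CPM of the members of each cluster in each library (points), with the mean and SD of the 3 replicates (bars). In SK-N-BE2 the STM2457 points lie above the DMSO points in all 3 clusters, and in NGP the lowest DMSO point of each cluster is replicate 1.

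Alpha members at low levels with DMSO showed the largest fold changes in SK-N-BE2. Of those that follow, PCDHA9 and PCDHA6 passed the filter on low counts only through their STM2457 libraries. Members this low with DMSO enter the test only where they rise. PCDHA9 stood at 0.105, 0.244 and 0.172 CPM with DMSO and 1.54, 1.78 and 1.19 CPM with STM2457, a log2 fold change of 3.08 (SE 0.39 and adjusted p 2.35e-05 by edgeR). PCDHA12 stood at 0.246, 0.629 and 0.211 against 2.68, 1.999 and 2.49 CPM, a log2 fold change of 2.70 (SE 0.37 and adjusted p 4.84e-05 by edgeR), or 3.34 without DMSO replicate 2. PCDHA6 stood at 0.211, 0.0812 and 0.0383 against 0.592, 0.529 and 0.748 CPM, a log2 fold change of 2.41 (SE 0.54 and adjusted p 0.00201 by edgeR), or 3.31 without DMSO replicate 1. In each of these the STM2457 libraries lay above all DMSO libraries.

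Other alpha members rose by less. PCDHA3 stood at 2.06, 1.16 and 1.74 CPM with DMSO and 5.26, 4.16 and 4.43 CPM with STM2457 (log2 fold change 1.44, SE 0.22 and adjusted p 0.000115 by edgeR). PCDHA10, the alpha member with the most reads and the longest unshared exon (12653 bases), stood at 13.4, 11.04 and 11.6 against 20.03, 24.8 and 22.3 CPM (0.86, SE 0.12 and adjusted p 3.53e-05 by edgeR). PCDHA4, PCDHA5, PCDHA7 and PCDHA13 rose by 1.65, 1.48, 1.35 and 1.66 on the log2 scale, and PCDHA1 and PCDHA2 by 0.99 and 0.76. Several of these calls lay near the threshold and were lost in fits that left out 1 library. Over all genes the share called in such fits ran from 45.7% to 55.3%, against 54.7% with all libraries. PCDHA4, PCDHA7 and PCDHA13 passed the filter on low counts only through their STM2457 libraries. PCDHA5 lost its call without STM2457 replicate 2 (adjusted p 0.0577) and PCDHA7 without DMSO replicate 2 or STM2457 replicate 1 or 3 (0.0833 to 0.102). PCDHA13 lost it without DMSO replicate 1 or 3 or STM2457 replicate 1 or 2 (adjusted p 0.0559 to 0.114), and also by DESeq2 (0.0577) and with no filter on low counts (0.0866). PCDHA1 lost it without DMSO replicate 3 or STM2457 replicate 2 or 3 (adjusted p 0.0516 to 0.0712) and PCDHA2 without DMSO replicate 2 or 3 or STM2457 replicate 2 (0.0624 to 0.109) or in a joint fit of the 12 libraries (0.051).

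The C-type members of alpha differed from one another in SK-N-BE2. PCDHAC2 stood at 11.1, 10.2 and 10.3 CPM with DMSO and 11.1, 12.1 and 10.6 CPM with STM2457, overlapping ranges with a log2 fold change of 0.06 (SE 0.11 and adjusted p 0.66 by edgeR). PCDHAC1 stood at 7.48, 7.02 and 5.83 against 10.5, 11.1 and 11.2 CPM, a log2 fold change of 0.65 (SE 0.13 and adjusted p 0.000761 by edgeR). The share of PCDHAC2 in the alpha level went from 35.7% ± 2.41 to 23.6% ± 0.939, and that of both C-type members from 54.2% ± 4.14 to 42.1% ± 0.46. The evenness number of alpha went from 5.09 ± 0.41 to 7.53 ± 0.13, with no overlap between the groups, and from 4.85 ± 0.24 to 5.50 ± 0.34 when taken from reads without regard to exon length. PCDHA8 and PCDHA11 were not called (0.42 and 0.24).

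In the beta cluster of SK-N-BE2 the largest change was in PCDHB14. It stood at 4.83, 3.76 and 4.37 CPM with DMSO and 15.6, 17.1 and 16.3 CPM with STM2457, a log2 fold change of 1.88 (SE 0.13 and adjusted p 8.13e-08 by edgeR). PCDHB16 stood at 11.4, 11.4 and 12.1 against 23.3, 26.9 and 24.3 CPM (1.06, SE 0.10 and adjusted p 1.84e-06 by edgeR), and PCDHB9 rose by 1.00. PCDHB4, the leading member, stood at 14.4, 14.9 and 14.95 against 18.95, 22.4 and 20.6 CPM, a smaller log2 fold change of 0.45 (SE 0.10 and adjusted p 0.00212 by edgeR). Its share of the beta level went from 35.2% ± 1.97 to 26.5% ± 0.7202, while that of PCDHB14 went from 8.396% ± 0.757 to 17.2% ± 0.319. PCDHB2 stood at 1.16, 1.26 and 1.46 against 2.26, 2.18 and 2.17 CPM (0.73, adjusted p 0.0142 by edgeR), and PCDHB6, PCDHB10 and PCDHB12 also rose (0.75, 0.54 and 0.94). PCDHB6 lost its call without STM2457 replicate 2 (adjusted p 0.0542), PCDHB10 without DMSO replicate 2 or any STM2457 replicate (0.0717 to 0.115) or among genes at a mean of 1 CPM (0.056), and PCDHB12 without replicate 2 or 3 of either group (0.0832 to 0.196). PCDHB3, PCDHB7, PCDHB8, PCDHB11, PCDHB13 and PCDHB15 were not called, with log2 fold changes from -0.29 to 0.90.

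The gamma cluster had the largest summed fold change in SK-N-BE2, and PCDHGC3 accounted for most of its reads. PCDHGC3 stood at 26.1, 15.6 and 19.4 CPM with DMSO and 62.7, 60.8 and 60.9 CPM with STM2457, a log2 fold change of 1.56 (SE 0.14 and adjusted p 1.31e-06 by edgeR). PCDHGC4 stood at 3.32, 2.03 and 2.53 against 8.64, 7.51 and 6.71 CPM (1.496, SE 0.19 and adjusted p 2.03e-05 by edgeR). PCDHGC5 stood at 0.422, 0.102 and 0.402 against 1.17, 1.02 and 0.844 CPM (1.65, SE 0.44 and adjusted p 0.00636 by edgeR). In all 3 gamma C-type members the groups did not overlap, and their joint share of the gamma level went from 67.4% ± 3.47 to 80.8% ± 0.19. The evenness number went from 2.80 ± 0.22 to 2.01 ± 0.05.

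Other gamma members rose from low levels in SK-N-BE2. PCDHGC5, PCDHGA5, PCDHGA7 and PCDHGB6 passed the filter on low counts only through their STM2457 libraries, so they could enter the test only by rising. PCDHGA6 stood at 0.246, 0.244 and 0.326 CPM with DMSO and 1.11, 1.39 and 1.27 CPM with STM2457, a log2 fold change of 2.16 (SE 0.34 and adjusted p 0.00015 by edgeR). PCDHGB6 stood at 0.105, 0.0812 and 0.268 against 0.888, 0.353 and 0.556 CPM (1.93, adjusted p 0.0088 by edgeR), a call lost without STM2457 replicate 1 (adjusted p 0.0626) and a value of 2.61 without DMSO replicate 3. PCDHGA5 rose by 2.37, a call lost without STM2457 replicate 2 (adjusted p 0.0592), and PCDHGA7, PCDHGA9 and PCDHGA1 by 2.22, 0.95 and 0.60, the last a call lost without DMSO replicate 1 or STM2457 replicate 2 or 3 (0.0819 to 0.122), in the joint fit (0.0574) or with the exon-length trend removed (0.0563). PCDHGB7, the leading variable member of this line, was not called, at 2.97, 2.54 and 2.95 against 3.498, 2.96 and 2.76 CPM (log2 fold change 0.09, adjusted p 0.716 by edgeR). PCDHGB2 was not called either (0.61). PCDHGB4 had 0 reads with DMSO and 16 with STM2457 (3, 8 and 5 by replicate). Pooled over the group, it was at least 5.37-fold higher against a limit of 3 reads over the group. These limits and shares treat reads as independent and cover counting error only.

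In NGP, fewer members were called with STM2457 and the summed levels moved by less. The alpha sum went from 40.6 ± 11.7 to 54.4 ± 3.21 CPM (1.34-fold), beta from 116.7 ± 15.2 to 162.6 ± 7.24 CPM (1.39-fold) and gamma from 50.04 ± 15.96 to 62.8 ± 5.19 CPM (1.25-fold). By library, DMSO stood at 27.2, 48.1 and 46.7 CPM in alpha, 99.3, 123.1 and 127.6 in beta and 31.7, 60.4 and 58.1 in gamma. With STM2457 the same sums were 53.1, 58.1 and 52.1, then 160.6, 170.6 and 156.5, then 58.2, 68.4 and 61.6 CPM. The groups did not overlap in alpha and beta, and in gamma the lowest STM2457 library lay below the highest DMSO library. Without DMSO replicate 1 the folds were 1.15 in alpha, 1.30 in beta and 1.06 in gamma.

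Of the 51 members tested in NGP, 14 were called, where 41.7% of all 13610 genes were. All 14 were higher, where 19.4% of all genes were called higher, and 0 were lower, where 22.2% were. Of the 14, PCDHB5, PCDHGC5, PCDHGA8 and PCDHGA12 passed the filter on low counts only through their STM2457 libraries. They could enter the test only by rising. At an unadjusted p under 0.05 edgeR gave 15 higher and 0 lower, and DESeq2 gave 15 higher and 0 lower after adjustment. The called members were 5 of 15 alpha, 6 of 15 tested beta and 3 of 21 tested gamma members. The median log2 fold change was 0.28, against -0.03 over all genes. In 19 of the 53 members the STM2457 libraries lay above all DMSO libraries, and in 0 below. The share of all genes separated in this way was not computed. Without STM2457 replicate 3 the number of members called was 6. Without STM2457 replicate 1 or DMSO replicate 3 it was 7, and without DMSO replicate 1 it was 12. Over all genes the share called was 28.4% without STM2457 replicate 3, 27.7% without STM2457 replicate 1, 31.6% without DMSO replicate 3 and 57.3% without DMSO replicate 1. Requiring a mean of 1 CPM left 33 members tested and 8 called. The filter on low counts left out PCDHB1 and PCDHGB5, and with no filter 11 of 53 were called. Of all genes, 43.7% were called at a mean of 1 CPM and 33.6% with no filter.

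In the alpha cluster of NGP, PCDHAC2 stood at 0.736, 1.44 and 0.8397 CPM with DMSO and 2.31, 2.02 and 2.33 CPM with STM2457, a log2 fold change of 1.14 (SE 0.30 and adjusted p 0.0156 by edgeR). Its call was lost without DMSO replicate 3 or STM2457 replicate 1 or 3 (adjusted p 0.0517 to 0.0594). PCDHA5 stood at 0.716, 0.868 and 0.957 against 1.799, 1.83 and 1.94 CPM (1.13, SE 0.25 and adjusted p 0.00705 by edgeR), with a clear gap between the groups, and PCDHA10 rose by 0.92. PCDHA7 stood at 0.318, 0.276 and 0.391 against 1.33, 0.715 and 0.562 CPM (1.40, adjusted p 0.0298 by edgeR), a call lost without DMSO replicate 2 or 3 or STM2457 replicate 1 (adjusted p 0.0623 to 0.143). PCDHA8 stood at 0.239, 0.395 and 0.312 against 0.804, 0.778 and 0.523 CPM (1.15, adjusted p 0.0391 by edgeR), a call that did not survive leaving out a single library, whichever of the 6 it was (adjusted p 0.0521 to 0.135), nor the absence of a filter (0.0557). The members that led the cluster were not called. PCDHA11, PCDHA2 and PCDHA1 had log2 fold changes of 0.41, 0.22 and -0.02. PCDHAC1, at rank 6 of the cluster with DMSO, was not called either (0.63, edgeR adjusted p 0.0603) although its groups did not overlap. It was called in 5 of 14 alternatives: DESeq2, the replicate block, the joint fit, the exon-length trend removed, and without DMSO replicate 2. The replicate block lost the calls of PCDHA7 (edgeR adjusted p 0.0557) and PCDHA8 (0.0781).

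In the beta cluster of NGP, PCDHB2 stood at 31.7, 34.8 and 41.9 CPM with DMSO and 54.9, 62.6 and 52.01 CPM with STM2457, a log2 fold change of 0.65 (SE 0.13 and adjusted p 0.0053 by edgeR). PCDHB5 stood at 0.0796, 0.217 and 0.273 against 0.614, 0.736 and 1.01 CPM, the largest beta change in this line (2.04, SE 0.48 and adjusted p 0.00957 by edgeR). PCDHB4 stood at 2.72, 3.18 and 2.5 against 5.34, 5.51 and 4.67 CPM (0.89, SE 0.18 and adjusted p 0.00463 by edgeR). In these 3 genes every STM2457 library lay above every DMSO library. PCDHB5 passed the filter on low counts only through its STM2457 libraries. PCDHB13 and PCDHB9 rose by 1.00 and 0.63, and PCDHB16 by 0.57, the last a call that was lost when a single STM2457 library, whichever it was, was left out (adjusted p 0.0766 to 0.0954). PCDHB13 lost its call without DMSO replicate 2 or STM2457 replicate 1 or 3 (adjusted p 0.0534 to 0.0955), and PCDHB9 without DMSO replicate 3 or any STM2457 replicate (0.061 to 0.119). PCDHB14 and PCDHB15 were not called (0.28 and 0.26).

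In the gamma cluster of NGP, PCDHGC5 stood at 0.119, 0.0395 and 0.0391 CPM with DMSO and 0.254, 0.357 and 0.388 CPM with STM2457, a log2 fold change of 2.30 (SE 0.59 and adjusted p 0.0139 by edgeR). It was 3.01 without DMSO replicate 1, and the call was lost without DMSO replicate 3 or STM2457 replicate 3 (adjusted p 0.0564 to 0.0598). PCDHGC3 stood at 14.0, 26.97 and 29.3 against 29.0, 35.8 and 30.2 CPM, overlapping ranges with a log2 fold change of 0.44 (SE 0.25 and adjusted p 0.19 by edgeR), and PCDHGC4 was not called (0.44). PCDHGA8 rose by 1.45 (edgeR adjusted p 0.0236), a call that held without DMSO replicate 2 and was lost without any other library (0.0564 to 0.0806), with no filter (0.0647) and in the joint fit (0.111). PCDHGA12 stood at 0.378, 0.158 and 0.332 against 0.423, 1.01 and 0.814 CPM (1.37, adjusted p 0.0471 by edgeR), a call lost without DMSO replicate 2 or 3 or STM2457 replicate 2 or 3 (adjusted p 0.0983 to 0.157), with no filter (0.0541) or in the joint fit (0.0585). With the replicate block the calls of PCDHGA8 (edgeR adjusted p 0.0603) and PCDHGA12 (0.0941) were also lost. PCDHGB2, the second member of this line, was not called (0.15), nor was PCDHGA6 (-0.12). The called members PCDHGC5, PCDHGA8 and PCDHGA12 passed the filter on low counts only through their STM2457 libraries.

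**Figure D4:**
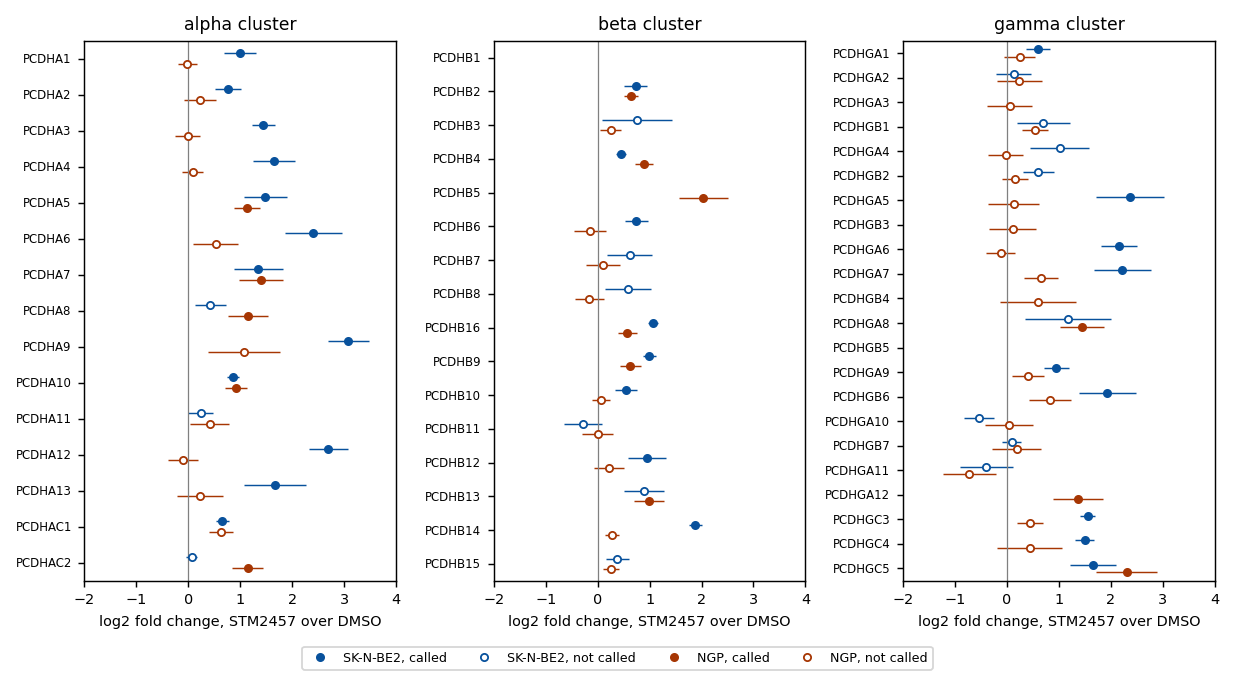
Log2 fold change of STM2457 over DMSO for each tested member in SK-N-BE2 (blue) and NGP (brown), with its standard error (bars); filled points passed the edgeR threshold of 0.05 and members without a point in a colour were not tested in that line. Every filled point lies to the right of 0, 29 in SK-N-BE2 plus 14 in NGP.

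In 8 members the call was made in both lines, each time with higher values: PCDHA5, PCDHA7, PCDHA10, PCDHB2, PCDHB4, PCDHB9, PCDHB16 and PCDHGC5. A further 21 were called in SK-N-BE2 alone and 6 in NGP alone, which is no test of a difference between the lines. The difference itself, the log2 fold change in SK-N-BE2 minus that in NGP, was tested over all 12 libraries. Of 51 members tested, 8 were called, where 30.9% of all 14731 genes were. It was higher in SK-N-BE2 for 7 of them, where 17.0% of all genes were, and lower for 1, where 13.9% were. The median difference over the tested members was 0.50, against 0.02 over all genes. The 8 were PCDHA1, PCDHA3, PCDHA4, PCDHA12, PCDHB14, PCDHGA6 and PCDHGC3, with a larger change in SK-N-BE2, and PCDHAC2, with a larger change in NGP.

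PCDHGC3 had a difference of 1.13 (SE 0.32 and adjusted p 0.0156 by edgeR), its log2 fold change being 1.56 in SK-N-BE2 against 0.44 in NGP. PCDHAC2 had a difference of -1.07 (SE 0.28 and adjusted p 0.00976 by edgeR), from 0.06 and 1.14. Without NGP DMSO replicate 1 the number called was 17, 15 higher and 2 lower, and DESeq2 called 15, 12 higher and 3 lower. Over all genes the share called was 42.0% and 35.8% in these settings. All 8 were among those called in both cases. PCDHA1 (1.02, adjusted p 0.0314 by edgeR) lost its call without SK-N-BE2 DMSO replicate 2 or 3, SK-N-BE2 STM2457 replicate 2 or 3, NGP DMSO replicate 3 or NGP STM2457 replicate 1 or 3 (adjusted p 0.0606 to 0.0846). PCDHA12 had a difference of 2.82, or 3.44 without SK-N-BE2 DMSO replicate 2. Removing the exon-length trend of each library was tried after the data had been seen. The counts were then 28 in SK-N-BE2, 15 in NGP, 37 between the lines and 8 for the difference. In the same order, 57.2%, 48.5%, 69.0% and 36.2% of all genes were called.

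Within a line the isoform profile with STM2457 stayed nearer to that with DMSO than to the other line. DMSO and STM2457 overlapped by medians of 82.8% in alpha, 85.6% in beta and 84.7% in gamma in SK-N-BE2, and by 85.9%, 91.1% and 92.0% in NGP. With STM2457 the lines overlapped by 61.3% in alpha, 51.6% in beta and 63.7% in gamma, against 45.1%, 50.7% and 61.8% with DMSO. The alpha pairs of libraries did not overlap between the treatments (57.2% to 63.6% with STM2457 and 39.3% to 49.6% with DMSO), while those of beta and gamma did. As shares of all member reads, gamma went from 28.8% ± 2.82 to 36.3% ± 1.70 and alpha from 33.1% ± 0.64 to 27.7% ± 0.44 in SK-N-BE2. The 3 clusters of NGP stood at 19.5%, 58.1% and 22.4% with STM2457. In NGP the C-type share of alpha was 11.4% ± 2.06 with DMSO and 15.01% ± 1.35 with STM2457, and that of gamma 45.7% ± 2.73 and 49.8% ± 1.71. These shares and overlaps are descriptions and were not tested.

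Other gene lists are read against all genes tested, of which STM2457 gave 26.9% higher and 27.8% lower in SK-N-BE2, against 19.4% higher and 22.2% lower in NGP. Protocadherins outside the clusters were a list of 12 genes. In SK-N-BE2, 3 of 9 tested were higher and 0 lower, and in NGP 3 of 10 were higher and 3 lower. PCDH18 rose in both lines (log2 fold changes 1.20 and 2.41), as did PCDH9 (0.57 and 0.79). PCDH10 rose by 1.54 in SK-N-BE2 and was lower in NGP (-0.68). PCDH1, which lies downstream of the gamma cluster with other genes between them, was lower in NGP (-3.09, adjusted p 4.07e-06 by edgeR) and not called in SK-N-BE2 (-0.08). The 30 other genes, PCDH1 among them, that start inside, between or within 500 kb of the clusters gave 10 higher and 4 lower of 26 tested in SK-N-BE2 and 6 higher and 3 lower of 24 in NGP. DIAPH1, an actin regulator next to the gamma cluster, rose in both (0.80 and 0.62). The median log2 fold change of these neighbours was 0.05 in SK-N-BE2, and that in NGP 0.23, against 0.92 and 0.28 over the tested members.

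Genes for CTCF, cohesin and its loading and release factors, which form the loops between these promoters and their enhancers, gave 8 higher and 1 lower of 16 in SK-N-BE2 and 7 higher and 2 lower in NGP. ESCO2, the acetyltransferase that acts on cohesin in S phase, rose by 1.10 and 1.05, and the ring subunit SMC1A by 0.97 and 0.72. CDCA5, which protects cohesin from release, rose by 0.97 in SK-N-BE2, and ZNF143, a promoter-binding factor, by 0.70 in NGP. CTCF itself rose in NGP (0.36, adjusted p 0.0123 by edgeR) but not by the test in SK-N-BE2 (0.08). Between the lines with DMSO, 0 of 16 were higher in SK-N-BE2 and 11 were lower, where 33.0% and 31.8% of all genes were.

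Genes of DNA methylation and chromatin silencing gave 6 higher and 3 lower of 16 in SK-N-BE2 and 6 higher and 1 lower in NGP. UHRF1, which brings DNMT1 to replicated DNA, rose by 1.36 and 1.75, and the maintenance methyltransferase DNMT1 by 0.99 and 0.58. The heterochromatin protein gene CBX5 rose by 0.88 in SK-N-BE2, and the histone methyltransferase gene EHMT2 by 0.50 and 0.64. The lower genes, named after their values were seen, were LRIF1 in both lines (-0.86 and -0.54) and TET3, an enzyme that oxidises methylcytosine, and ATF7IP in SK-N-BE2 (-0.52 and -0.39). Methylation of the member promoters was not measured by these libraries. Of 27 genes for cytoplasmic partners, kinases and the proteases that cut protocadherins, 8 were higher and 5 lower in SK-N-BE2 and 2 higher and 7 lower in NGP. PTK2B, a kinase known to be held in check by protocadherin tails, was lower in both (-1.41 and -1.09). RET, a receptor kinase that binds clustered protocadherins, was lower in SK-N-BE2 (-1.02) and higher in NGP (1.03). The WAVE complex gene CYFIP2 was lower in NGP (-1.06) and slightly higher in SK-N-BE2 (0.30), the Wnt pathway gene AXIN1 was lower in NGP (-0.97), and PSENEN, a subunit of gamma-secretase, was lower in SK-N-BE2 (-0.76).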

How the data were processed

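Poly(A)-selected RNA from 12 libraries of 2 cell lines was read as counts. The authors deposited raw read counts per gene, made per the file headers with featureCounts 2.0.5 over exons of GENCODE 33 protein-coding genes (GRCh38), with both reads of a pair counted, no strand used, and multi-mapped and ambiguous reads left out. The submitters' processing notes also name FastQC 0.11.5, Trimmomatic 0.36, HISAT2 2.1.0 and Subread 1.5.3, with no order given. Each comparison was fitted over all genes with edgeR 4.0.16 in R 4.3.3 (filterByExpr at a minimum count of 10, TMM, quasi-likelihood test, Benjamini-Hochberg adjustment over all genes, threshold 0.05). Within-line and DMSO comparisons used their own 6 libraries, and the difference of responses all 12. The fit was tested on simulated data. DESeq2 1.42.0, other filters and scalings, a joint fit, halved counts, a replicate block and leaving out each library were alternatives. Python 3.11.15 with pandas 2.3.3 computed CPM, lengths, shares and promoter motifs, the promoters being those of RefSeq (GRCh38.p14). The members, gene lists and tests were chosen with earlier results of these data known. Members described library by library were the 3 highest per kb in each cluster and line, up to 6 called members of largest fold change per comparison among those at 0.5 CPM or more, and the C-type members. Others are named to account for the counts.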

Additional observations from a re-analysis of the deposited data

Results flagged for a closer look

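In 8 members the STM2457 response differed between the lines by the test of the difference itself (edgeR, 12 libraries, adjusted over all genes). The log2 fold change in SK-N-BE2 minus that in NGP was 1.02 for PCDHA1, 1.47 for PCDHA3, 1.58 for PCDHA4 and 2.82 for PCDHA12 in the alpha cluster. PCDHAC2 had the opposite sign, at -1.07. The difference was 1.62 for PCDHB14 in the beta cluster, and 2.29 for PCDHGA6 and 1.13 for PCDHGC3 in the gamma cluster. The doses differed (12 µM and 1 µM) and the headers name different sequencing runs, so the line, its dose and its run cannot be told apart. These groups of 3 are too small for the rule on samples far from their group.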

How the results depend on the processing

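No member called under both the main setting and an alternative changed direction. Requiring a mean of 1 CPM gave 16 calls in SK-N-BE2 and 8 in NGP, from fewer members tested. Of all genes 57.9% and 43.7% were then called. DESeq2 gave 15 calls for the difference of responses, where 35.8% of all genes were called, and the cause was not tested. Leaving out 1 library at a time gave 20 to 31 calls in SK-N-BE2, 6 to 12 in NGP, 31 to 38 between the lines and 7 to 17 for the difference. Over all genes the share called in these fits ran from 45.7% to 55.3%, 27.7% to 57.3%, 57.1% to 71.2% and 24.8% to 42.0%. Same-numbered libraries within a line correlated between -0.141 and 0.134 and not every library correlated best with its own number, so the numbers were not taken as pairs. With a replicate block the calls numbered 28, 11, 33 and 7 in the same order. The shares of all genes called were then 53.7%, 36.9%, 56.9% and 27.3%. The block lost the call of PCDHB12 in SK-N-BE2 and those of PCDHA7, PCDHA8, PCDHGA8 and PCDHGA12 in NGP. Between the lines it lost PCDHA5, PCDHB7, PCDHGA1 and PCDHGA10, and for the difference PCDHA1. The adjusted p of these by edgeR ran from 0.0557 to 0.0941. Per kb of unshared exon, the cluster shares of the members' level were 29.2% alpha and 34.7% gamma in SK-N-BE2 with DMSO, 23.3%, 32.9% and 43.8% (alpha, beta, gamma) with STM2457, 28.5% gamma in NGP with DMSO, and 18.3%, 54.2% and 27.5% with STM2457, because length is then divided out. From reads without length, the evenness number in SK-N-BE2 with STM2457 was 5.50 in alpha and 5.30 in beta. Counting each tested member once per comparison and setting, leaving out a library lost 94 calls, gained 29 and left 1353 on their side of the threshold, and the other alternatives lost 22, gained 16 and left 1374. The filter on low counts left 2 to 7 members out of a comparison. With no filter, the calls among all 53 numbered 30, 11, 38 and 8, where 45.6%, 33.6%, 56.0% and 25.3% of all genes were called.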
